A study of Mus musculus with 12 samples.

Results

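The genes described here are 35 genes of glycolysis and of the response to low oxygen, chosen by symbol from the table of estimated gene counts in donor bone marrow progenitors. All 35 symbols were found, and they name 36 of the 55450 annotated genes in the table because Aldoa is the name of a pair of genes. Of these 36, 34 passed the limit on low counts together with 14346 genes in all. Eno2, with 0 to 4 counts per library, and P4ha2, with 0 to 7, did not pass and were not tested. The members cover the carriers of glucose and lactate (4 symbols), upper glycolysis (10), the enzymes that set the activity of phosphofructokinase (2), lower glycolysis (6), the fate of pyruvate (3), oxygen sensing (3) and other targets of the hypoxia response (7).

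Total RNA depleted of ribosomal RNA was sequenced from donor cells that lacked lineage markers and carried the receptor Kit, sorted from the marrow of mice after competitive transplantation. The 12 libraries fall into 4 genotype labels of the donor cells with 3 libraries each, which are wild type (WT), Tet2 null (Tet2KO), Id1 null (Id1KO) and null for both genes at once (dKO). The alleles, the ages of the mice, the competitor cells and the number of recipients behind a library are not given in the sources used here. The titles carry 1 sample number per genotype, with a suffix on the second and the third library whose meaning is not stated. The libraries may therefore be repeats of 1 cell sample, and p-values measure the spread between these libraries, which may be technical.

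Libraries held 15706368 to 19959153 counts. Levels are given in CPM, counts scaled to a common library size, with the SD over n = 3 libraries, and levels of different genes are compared only after division by exonic length. Gene coordinates are 1-based, on build GRCm38 with the GENCODE M21 annotation. The transcripts of Tet2 and Id1 did not fall with the labels that name them. Tet2 stood at 99.3 ± 2.2 CPM in WT, with 130 ± 2.5 in Tet2KO, 91.9 ± 1.5 in Id1KO and 118 ± 3.1 in dKO. In the same order Id1 stood at 1.47 ± 0.27, 3.86 ± 0.42, 3.96 ± 0.34 and 3.93 ± 0.5. Genotype names below are therefore the labels of the libraries, and each direction is a difference between libraries labelled so. Kit stood at 315 to 365 CPM by label and Cd3e of T cells at 0 or 1 count per library. In bulk RNA, fewer cells of a type and less RNA per cell cannot be told apart.

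Glycolysis splits glucose to pyruvate with a small yield of ATP and without oxygen. When oxygen is short, the prolyl hydroxylases that mark the transcription factor HIF for destruction slow down, and HIF raises glucose carriers, glycolytic enzymes, lactate export and growth factors such as VEGF. Bone marrow is poor in oxygen, and blood stem cells are known to rely on glycolysis, while maturing red cells depend on it because they lose their mitochondria.

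Of the abundant enzymes of the trunk of glycolysis, Gapdh, Pgk1, Eno1 and Tpi1 did not pass the test in any comparison, with log2 fold changes of -0.01 to 0.06 for Gapdh, while Pkm was higher by 0.18 in Tet2KO than in WT (edgeR adjusted p 9.59e-05) and Pgam1 by 0.09 (0.00938). Other differences lay in Vegfa, Mxi1 and Slc2a3, which were lower in both Tet2-null labels than in WT, in Pfkm, Slc16a1 and Hk1, which were lower in Tet2KO than in WT and in dKO, and in Ldhb and Slc16a3, which were lower in dKO than in each of the other labels. Pfkfb4 was lower in dKO than in WT and Id1KO, and its libraries overlapped between dKO and Tet2KO. Hk3 was lower in Id1KO and in dKO than in WT.

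In Tet2KO against WT, 11 of the 34 tested members passed an edgeR adjusted p of 0.05, 5 higher and 6 lower, where 32.8% of all tested genes passed, 16.6% higher and 16.2% lower. In Id1KO against WT, 3 passed, 1 higher and 2 lower, against 15% of all genes, 7.26% higher and 7.77% lower. In dKO against WT, 11 passed, 2 higher and 9 lower, against 19.2% of all genes, 10.2% higher and 8.97% lower. In dKO against Tet2KO, 13 passed, 4 higher and 9 lower, against 26.4% of all genes, 13.1% higher and 13.4% lower. In dKO against Id1KO, 11 passed, 2 higher and 9 lower, against 19.3% of all genes, 10.6% higher and 8.7% lower. The members' share thus lay near the background in Tet2KO against WT (32.4%), below it in Id1KO against WT (8.82%) and above it in the 3 comparisons of dKO (32.4%, 38.2% and 32.4%), where 27 of the 35 calls were lower values.

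Most of these changes were small. The members' median log2 fold change was -0.03 in Tet2KO against WT, -0.04 in Id1KO against WT, -0.07 in dKO against WT, and -0.07 and -0.01 in dKO against Tet2KO and against Id1KO, where the median of all tested genes lay between -0.01 and 0.00. Calls with a log2 fold change of at least 0.3 either way and no overlap between the compared libraries numbered 3, 1, 5, 3 and 6 of the 34 in that order, where 12%, 4.41%, 8.1%, 8.04% and 7.85% of all genes met the same rule. These comparisons share libraries, so they are not independent of each other. A further fit summed the 3 libraries of each genotype to 1 and took additive effects of both labels. Of the 38 called values with such a fit, 2 remained. Both are the same estimate, that of Vegfa for the Tet2 label (-0.60, edgeR adjusted p 0.043). Of all genes, 1.62% passed for the Tet2 label and 0.0488% for the Id1 label. The spread in this fit is measured from departures from additive effects. It therefore cannot judge members such as Pfkm, whose value in Tet2KO was not shared by dKO.

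**Figure D1:**
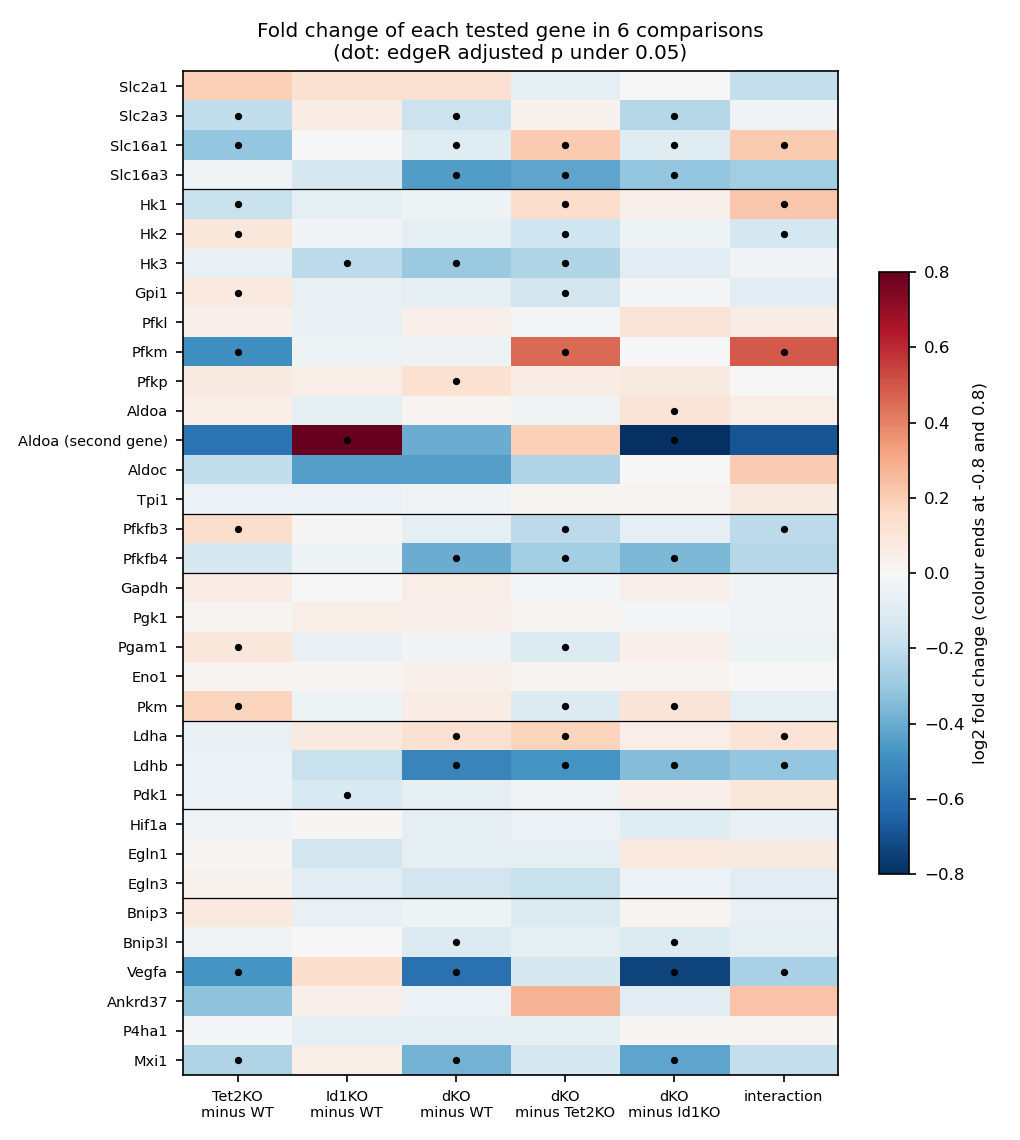
Log2 fold change of each tested gene (vertical axis, grouped by role between the lines) in 5 comparisons of genotype labels and in the interaction (horizontal axis), with a dot where the edgeR adjusted p was under 0.05. Blue cells with dots gather in the dKO columns for Slc16a3, Pfkfb4 and Ldhb and in the Tet2KO and dKO columns for Vegfa and Mxi1, while the cells of Gapdh, Pgk1 and Eno1 are pale throughout.

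Levels spanned several orders of magnitude, and the trunk enzymes were the most abundant. Per kb of exon, Gapdh stood at 297 CPM on average over the 12 libraries, Pgam1 at 243, Pkm at 184, Aldoa at 182, Pgk1 at 177, Ldha at 171, Tpi1 at 120 and Gpi1 at 115. Vegfa stood at 5.8 CPM per kb, Slc2a3 at 4.7, Mxi1 at 4.64 and Slc16a3 at 2.0. The lowest tested members were Ankrd37 at 0.388 and Aldoc at 0.331 CPM per kb, below the second gene named Aldoa at 1.29.

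**Figure D2:**
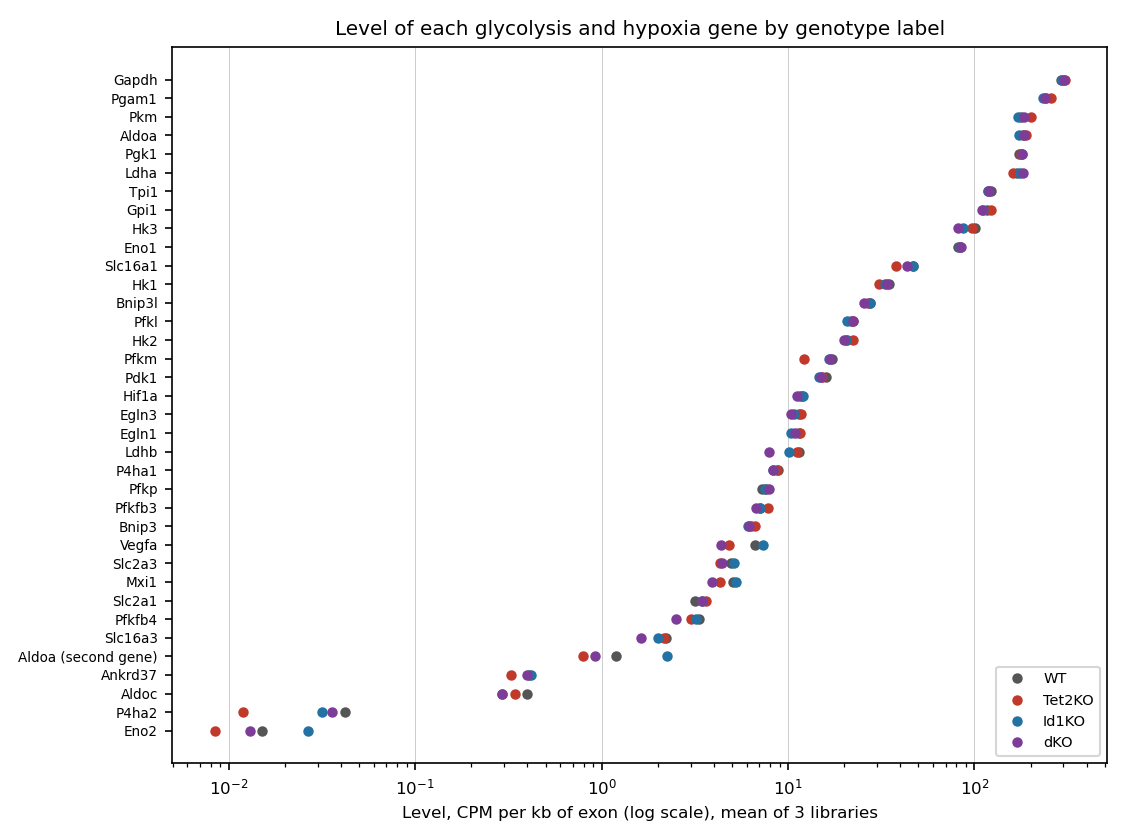
Mean level of each member in CPM per kb of exon (horizontal axis, log scale) by genotype label (colour, 3 libraries each), ordered by the mean over the 12 libraries (vertical axis). Points of the upper genes lie on top of each other, while Pfkm is set apart in Tet2KO, and Ldhb and Slc16a3 in dKO.

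Among the carriers, which move glucose in and lactate out, Slc16a1, Slc16a3 and Slc2a3 changed and Slc2a1 did not pass the test in any of the comparisons. Slc2a3 (chr6:122727809-122801640, ENSMUSG00000003153.10), the high-affinity glucose carrier GLUT3, stood at 34.2, 36.8 and 36.7 CPM in WT and at 38.1, 37.5 and 36.6 in Id1KO. It stood at 29.1, 32.4 and 32.1 CPM in Tet2KO and at 33.1, 30.9 and 31.6 in dKO. Every library of the Tet2-null labels was thus below every library of the other labels. The log2 fold change was -0.20 (SE 0.052, edgeR adjusted p 0.00538) in Tet2KO against WT, -0.23 (0.00325) in dKO against Id1KO and -0.17 (0.0247) in dKO against WT. The last was lost without WT replicate 2 (edgeR adjusted p 0.0977), WT replicate 3 (0.0984), dKO replicate 2 (0.0939) or dKO replicate 3 (0.0771), and with DESeq2 (0.0865). Slc2a1, the widespread glucose carrier GLUT1, had values of -0.07 to 0.19 with a smallest edgeR adjusted p of 0.124.

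Slc16a1 (chr3:104638668-104658462, ENSMUSG00000032902.1), the lactate and proton carrier MCT1, made up 94.6% to 96.4% of the lactate carrier transcripts per kb by label. It stood at 202, 211 and 206 CPM in WT, with 171, 167 and 162 in Tet2KO, 205, 201 and 212 in Id1KO and 193, 188 and 195 in dKO. The 3 Tet2KO libraries were the lowest of the 12, and the dKO libraries lay between them and WT without overlap. It fell by 0.31 on the log2 scale in Tet2KO against WT (SE 0.03, edgeR adjusted p 1.58e-07) and was higher by 0.21 in dKO than in Tet2KO (4.85e-05). The values in dKO were -0.10 against WT (edgeR adjusted p 0.0187), lost without WT replicate 2 (0.102), WT replicate 3 (0.0572) or dKO replicate 2 (0.0704), and -0.10 against Id1KO (0.0205), lost without Id1KO replicate 3 (0.0923) or dKO replicate 2 (0.0603).

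Slc16a3 (chr11:120948480-120960868, ENSMUSG00000025161.16), the lactate exporter MCT4 and a known hypoxia target, had the opposite order among the Tet2-null labels. It stood at 11.2, 13 and 10.9 CPM in WT, with 11, 12.3 and 11.2 in Tet2KO, 10.2, 11.4 and 10.4 in Id1KO and 8.36, 8.14 and 9.33 in dKO. The 3 dKO libraries were the lowest of the 12, and the other labels overlapped. The log2 fold change was -0.45 (SE 0.094, edgeR adjusted p 0.002) against WT, -0.42 (0.00299) against Tet2KO and -0.31 (0.0269) against Id1KO. The last was lost without Id1KO replicate 2 (edgeR adjusted p 0.107), dKO replicate 1 (0.0814) or dKO replicate 2 (0.0903), and with DESeq2 (0.0818).

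Upper glycolysis carries glucose to the triose phosphates, and its control points are the hexokinases and phosphofructokinases. Of its 11 tested genes, 4 changed in Tet2KO against WT (2 higher, 2 lower), 2 in Id1KO against WT, 2 in dKO against WT, and 5 (2 higher, 3 lower) and 2 in dKO against Tet2KO and against Id1KO. These are 36.4%, 18.2%, 18.2%, 45.5% and 18.2% of its genes, against 32.8%, 15%, 19.2%, 26.4% and 19.3% of all genes tested. The largest of the well-covered changes was that of Pfkm (chr15:98092589-98132451, ENSMUSG00000033065.14), the muscle-type phosphofructokinase, which red cells are also known to use. Pfkm stood at 56.9, 58.1 and 56.5 CPM in WT, with 38.5, 41.4 and 42.0 in Tet2KO, 55.6, 55.3 and 55.6 in Id1KO and 56.8, 51.9 and 58.2 in dKO. The 3 Tet2KO libraries stood below all 9 others, while the dKO libraries overlapped WT and Id1KO. It fell by 0.49 in Tet2KO against WT (SE 0.046, edgeR adjusted p 9.63e-08) and was higher by 0.45 in dKO than in Tet2KO (SE 0.047, edgeR adjusted p 6.89e-07). Against WT, dKO gave -0.04 (edgeR adjusted p 0.599) and Id1KO -0.04 (0.567). A non-coding gene on the same strand shares 341 bp of Pfkm exon, and 2.93% of their summed counts were assigned to it. With these counts added to Pfkm, both calls held.

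The makeup of the phosphofructokinase family differed in Tet2KO. Per kb of exon, Pfkm made up 37.1% ± 0.64 of the family in WT, 37% ± 0.96 in Id1KO and 35.5% ± 0.2 in dKO, but 28.8% ± 1.1 in Tet2KO (SD, n = 3). Pfkl, the liver type, made up 53.1% ± 1.1 in Tet2KO against 47.1% ± 0.4 in WT, while its own level did not pass the test in any comparison, with log2 values of -0.06 to 0.10. Pfkp, the platelet type, rose by 0.12 in dKO against WT (SE 0.032, edgeR adjusted p 0.0098). It shares 748 bp of exon with Pitrm1 on the opposite strand, and how strands were counted is not given in the sources used here.

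**Figure D3:**
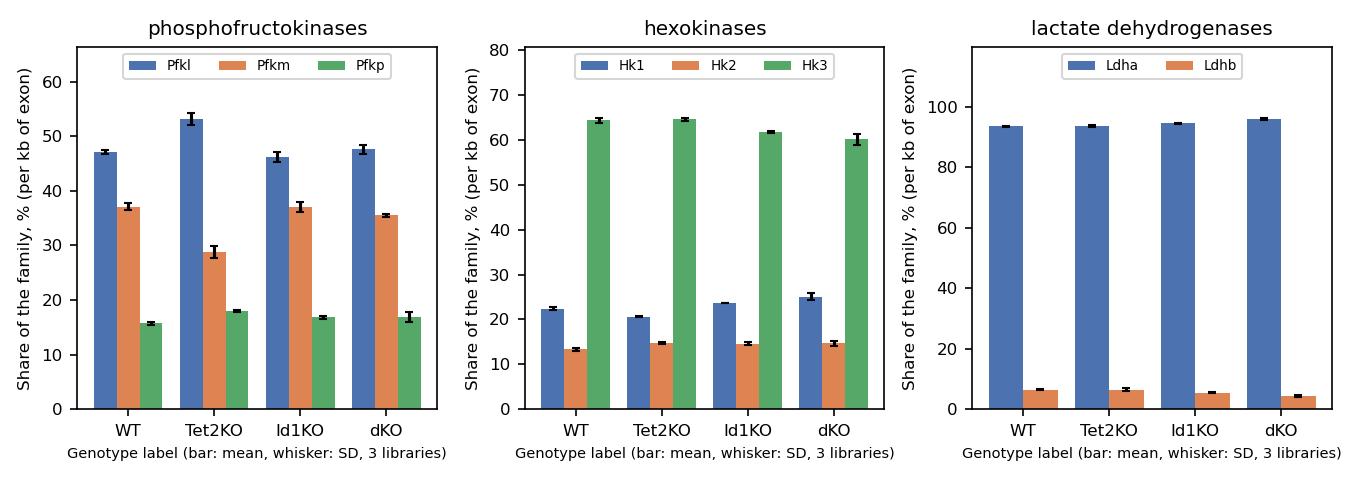
Share of each isozyme in its family in percent, from CPM per kb of exon (vertical axis), by genotype label (horizontal axis), as mean and SD of 3 libraries. Pfkm takes 28.8% of the phosphofructokinases in Tet2KO against 35.5% to 37.1% in the other labels, Hk3 60.2% of the hexokinases in dKO against 64.4% in WT, and Ldhb 4.19% of the lactate dehydrogenases in dKO against 6.4% in WT.

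The hexokinases trap glucose in the cell, and each of the 3 moved differently. Hk1, the widespread form that red cells rely on, ranged from 293 to 304 CPM in WT, with 261 to 264 in Tet2KO, 282 to 287 in Id1KO and 279 to 309 in dKO. It fell by 0.18 in Tet2KO against WT (SE 0.032, edgeR adjusted p 0.000185) and was higher by 0.14 in dKO than in Tet2KO (0.0024). Hk2, the inducible form and a hypoxia target, rose by 0.09 in Tet2KO against WT (edgeR adjusted p 0.0164), lost without WT replicate 3 (0.0742) and with DESeq2 (0.0579), and was lower by 0.16 in dKO than in Tet2KO (0.000431). Hk3, the form of myeloid cells, made up 60.2% to 64.6% of the family per kb. It ranged from 368 to 373 CPM in WT, with 351 to 363 in Tet2KO, 316 to 324 in Id1KO and 279 to 314 in dKO. It fell by 0.21 in Id1KO against WT (SE 0.034, edgeR adjusted p 0.000242), by 0.30 in dKO against WT (3.04e-06) and by 0.24 in dKO against Tet2KO (3.68e-05).

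Markers of the blood lineages moved beside these enzymes. The summed level of 19 erythroid genes (of 20 listed, Ahsp not being found) ran from 1760 to 1810 CPM in WT, with 1043 to 1049 in Tet2KO, 1943 to 1978 in Id1KO and 1758 to 1775 in dKO. Of the 19, 18 passed the test as lower in Tet2KO than in WT (median -0.91), against 16.2% of all genes. In dKO against Tet2KO, 18 passed as higher (median 0.87), against 13.1% of all genes. None of the 19 was at 0. As for Pfkm, Slc16a1 and Hk1, Tet2KO was the lowest of the labels, with a larger fold. Summed neutrophil granule genes (11 of 11 found, none at 0), the lineage in which Hk3 is known, ran from 14101 to 14159 CPM in WT, with 15572 to 15810 in Tet2KO, 11854 to 12832 in Id1KO and 11657 to 12851 in dKO. Most of this sum was Mpo (9904 CPM in WT), and the list did not move as one. Of the 11, 2 passed the test as lower and none as higher in Id1KO against WT (median -0.04). In dKO against WT, 3 passed as higher and 4 as lower (median 0.06). In dKO against Tet2KO, 3 passed as higher and 6 as lower (median -0.15). In that order, 15%, 19.2% and 26.4% of all genes passed. The part of either lineage in the values of these enzymes was not tested.

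**Figure D4:**
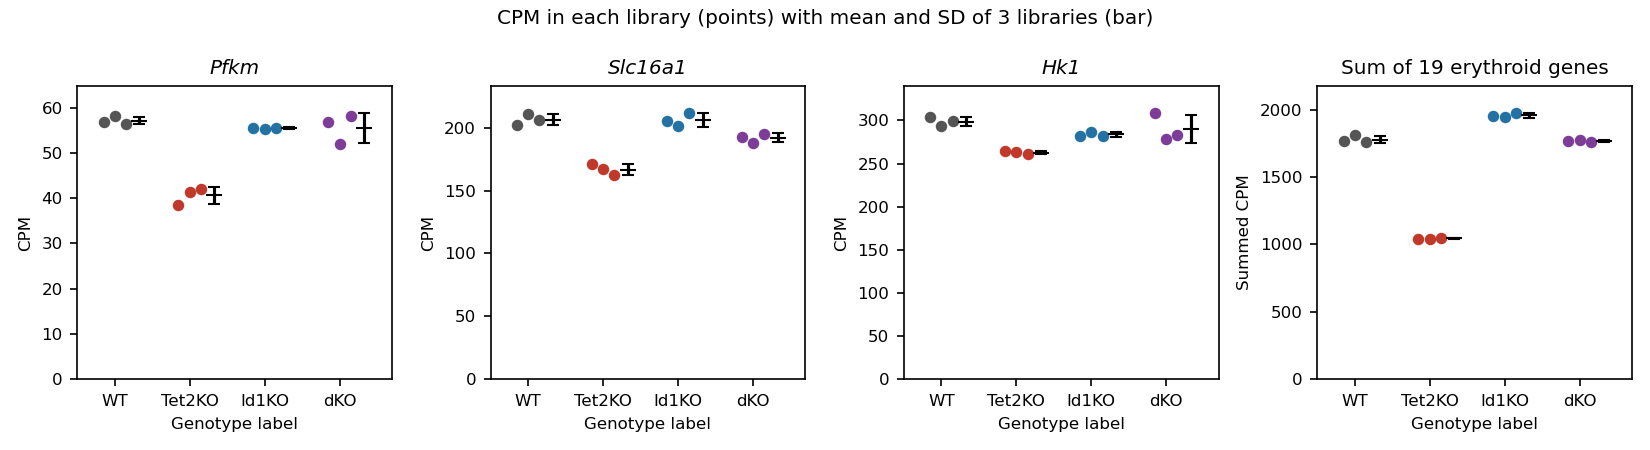
CPM of Pfkm, Slc16a1 and Hk1 and the summed CPM of 19 erythroid marker genes (vertical axes from 0) in each library by genotype label (horizontal axes), with points for libraries and bars for the mean and SD of 3 libraries. In each panel the 3 Tet2KO libraries are the lowest, with erythroid sums of 1043 to 1049 against 1758 or more in the other labels.

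The promoters of Pfkm and Slc16a1, the pair with GATA letter runs among Pfkm, Slc16a1 and Hk1, are shown as the 250 bases before the RefSeq start nearest the annotated 5′ end (RefSeq on GRCm38.p6, 5′ to 3′ on the gene's strand). Capitals mark a GATA letter run (AGATAA or TGATAA on either strand), the kind of site read by the red cell factor Gata1, or a core of the hypoxia response element (ACGTG or GCGTG on either strand, with CACGTG counted once). The GATA and hypoxia patterns can share letters at their ends. The Pfkm window lies at chr15:98092339-98092588 on the plus strand and holds 3 GATA runs and 1 hypoxia core, and the Slc16a1 window at chr3:104638414-104638663 on the plus strand holds 1 and 3. The Hk1 window at the same kind of start holds 0 of either pattern and is not printed, while the other RefSeq start of Hk1 has 2 hypoxia cores.
Pfkm: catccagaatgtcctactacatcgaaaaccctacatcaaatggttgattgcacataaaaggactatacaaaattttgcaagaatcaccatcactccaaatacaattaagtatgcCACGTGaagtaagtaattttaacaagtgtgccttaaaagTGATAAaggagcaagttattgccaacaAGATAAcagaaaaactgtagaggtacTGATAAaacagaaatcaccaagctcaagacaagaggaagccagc
Slc16a1: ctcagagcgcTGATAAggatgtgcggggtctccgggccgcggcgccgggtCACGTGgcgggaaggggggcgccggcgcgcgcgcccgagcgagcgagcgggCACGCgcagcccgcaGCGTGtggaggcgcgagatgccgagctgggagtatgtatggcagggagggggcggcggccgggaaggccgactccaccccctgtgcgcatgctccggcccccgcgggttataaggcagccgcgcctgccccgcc

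Over all 32851 promoters in the RefSeq table, 16.6% held a GATA run and 38.6% a hypoxia core in a window of this length. That set holds every start of a gene, with no filter on expression. The members were chosen as glycolysis and hypoxia genes and were counted at 1 start each, so the shares are of unlike sets. The starts picked for Ldha, Ankrd37 and Hif1a lie 4329, 5857 and 6492 bp from the annotated 5′ end. Among the 33 members with a window, 6 (18.2%) held a GATA run and 25 (75.8%) a hypoxia core. The 6 are Pfkm, Slc16a1, Pkm, Aldoa, Pfkfb4 and Vegfa, and they did not move alike. Pkm was higher in Tet2KO than in WT (0.18), and Aldoa and Pfkfb4 did not pass the test there. Vegfa was lower than in WT in both Tet2KO (-0.47) and dKO (-0.60). The part of GATA sites in any of these values was not tested. Pfkm has 4 starts in the table, with 3, 2, 1 and 0 GATA runs. A match is a description of the letters and not of binding, and which start is used in these cells was not measured.

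The remaining genes of upper glycolysis had small values. Gpi1, which isomerises glucose phosphate, rose by 0.08 in Tet2KO against WT (edgeR adjusted p 0.0311) and was lower by 0.15 in dKO than in Tet2KO (0.000376). The first of these was lost without WT replicate 1 (edgeR adjusted p 0.0554), WT replicate 2 (0.0889) or Tet2KO replicate 1 (0.135). Aldoa (chr7:126795234-126800751, ENSMUSG00000030695.16), the main aldolase, stood at 516, 529 and 549 CPM in WT, with 561, 535 and 550 in Tet2KO, 491, 518 and 502 in Id1KO and 555, 515 and 549 in dKO. All labels overlapped with at least 1 other, and the value of 0.10 in dKO against Id1KO (edgeR adjusted p 0.039) was lost without Tet2KO replicate 3 (0.0525), Id1KO replicate 1 (0.168), Id1KO replicate 3 (0.0953), dKO replicate 1 (0.158) or dKO replicate 3 (0.136), and with only the libraries compared (0.0646). Aldoc and Tpi1 did not pass the test.

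A further gene annotated as Aldoa (chr7:126800790-126809108, ENSMUSG00000114515.2), next to the main one and with 8 to 38 counts per library, gave the largest fold change among the members. It stood at 0.881, 0.979 and 1.03 CPM in WT, with 0.673, 0.476 and 0.753 in Tet2KO, 1.54, 1.72 and 2.09 in Id1KO and 0.95, 0.598 and 0.649 in dKO. The 3 Id1KO libraries were above all 9 others. Its log2 fold change was 0.88 in Id1KO against WT (SE 0.24, edgeR adjusted p 0.015), lost without WT replicate 1 (0.058) or Id1KO replicate 3 (0.0822), and -1.28 in dKO against Id1KO (SE 0.26, edgeR adjusted p 0.00135).

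Pfkfb3 and Pfkfb4 encode the bifunctional enzymes that make and remove the strongest activator of phosphofructokinase, and both are known hypoxia targets. Pfkfb4 (chr9:108991778-109032228, ENSMUSG00000025648.18) stood at 14.9, 16.3 and 17.2 CPM in WT, with 12.9, 14.8 and 16.4 in Tet2KO, 15.9, 15 and 16.3 in Id1KO and 11.7, 11.2 and 13.8 in dKO. The dKO libraries were below WT and Id1KO without overlap but overlapped Tet2KO. Its log2 fold change was -0.40 (SE 0.093, edgeR adjusted p 0.00406) in dKO against WT and -0.36 (0.00906) against Id1KO. The value of -0.27 against Tet2KO (edgeR adjusted p 0.0431) was lost in 6 of the 12 fits that left out 1 library, from 0.0506 without WT replicate 2 and 0.0513 without Id1KO replicate 1 to 0.091, 0.125, 0.159 and 0.23 without Tet2KO replicate 2, dKO replicate 1, dKO replicate 2 and Tet2KO replicate 3. It was also lost with DESeq2 (0.0747) and with only the libraries compared (edgeR adjusted p 0.0617). Pfkfb3 ranged from 50.6 to 56.6 CPM in WT, with 58.2 to 59.2 in Tet2KO, 53.0 to 54.0 in Id1KO and 48.6 to 52.6 in dKO. It rose by 0.14 in Tet2KO against WT (edgeR adjusted p 0.016), lost without WT replicate 2 (0.0826), and was lower by 0.21 in dKO than in Tet2KO (0.00157).

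Lower glycolysis yields ATP and pyruvate, and of its 5 tested genes Pkm and Pgam1 changed. Gapdh (chr6:125161715-125166467, ENSMUSG00000057666.18), which oxidises triose phosphate, stood at 1180, 1218 and 1217 CPM in WT, with 1237, 1257 and 1275 in Tet2KO, 1216, 1239 and 1172 in Id1KO and 1279, 1208 and 1252 in dKO. Its log2 values ran from -0.01 to 0.06 (SE 0.028), with a smallest edgeR adjusted p of 0.111. Pkm (chr9:59656368-59679375, ENSMUSG00000032294.17), the pyruvate kinase of most tissues, stood at 859, 895 and 901 CPM in WT, with 1005, 992 and 1004 in Tet2KO, 863, 881 and 843 in Id1KO and 953, 889 and 930 in dKO. All 3 Tet2KO libraries were above the other 9.

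Pkm rose by 0.18 in Tet2KO against WT (SE 0.029, edgeR adjusted p 9.59e-05) and was lower by 0.11 in dKO than in Tet2KO (0.00616). Its value of 0.10 in dKO against Id1KO (edgeR adjusted p 0.0199) was lost without Id1KO replicate 1 (0.0597), Id1KO replicate 3 (0.0937), dKO replicate 1 (0.105) or dKO replicate 3 (0.0669). Pgam1 (chr19:41911923-41918660, ENSMUSG00000011752.7), the phosphoglycerate mutase, was also highest in Tet2KO, by a smaller fold. It stood at 472, 483 and 485 CPM in WT, with 506, 514 and 509 in Tet2KO, 465, 460 and 455 in Id1KO and 467, 478 and 476 in dKO, with the Tet2KO libraries the highest 3. It rose by 0.09 in Tet2KO against WT (SE 0.024, edgeR adjusted p 0.00938) and was lower by 0.11 in dKO than in Tet2KO (0.00306). Pgk1 and Eno1 ran from -0.01 to 0.05 and from 0.02 to 0.04. Near-identical copies elsewhere in the genome held 3.69% of the summed counts for Gapdh and 3.94% for Pgk1. For Pkm, genes with near-identical sequence held 2.92%. Most of it (466.2 counts on average) was assigned to a gene on the same strand that shares 767 bp of Pkm exon. Adding all of these counts to the members kept all 57 calls. Only matches of at least 300 bp were added. Shorter matches of at least 100 bp, which Slc2a3 has with 43 genes, were left out, and their part in its values was not tested.

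Lactate dehydrogenase, which turns pyruvate into lactate, changed its makeup in dKO. Ldhb (chr6:142490249-142507957, ENSMUSG00000030246.11), the form of oxidative tissues, stood at 18.4, 17.7 and 17.9 CPM in WT, with 17.0, 16.7 and 18.6 in Tet2KO, 16, 16.4 and 15.4 in Id1KO and 13.7, 11.7 and 12 in dKO. The 3 dKO libraries were the lowest of the 12. The log2 fold change was -0.53 (SE 0.072, edgeR adjusted p 2.13e-05) against WT, -0.48 (6.06e-05) against Tet2KO and -0.35 (0.00173) against Id1KO. Ldha, the form that favours lactate and a classical hypoxia target, moved the other way. It ranged from 550 to 560 CPM in WT, with 525 to 535 in Tet2KO, 575 to 597 in Id1KO and 592 to 611 in dKO. Ldha rose by 0.12 in dKO against WT (SE 0.025, edgeR adjusted p 0.00212) and by 0.18 against Tet2KO (2.23e-05). In dKO against Id1KO, Ldha did not pass the test and the libraries overlapped. Id1KO against WT gave 0.07 (edgeR adjusted p 0.0617), without overlap.

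Per kb, Ldhb made up 6.4% ± 0.18 of both forms in WT, with 6.47% ± 0.34 in Tet2KO, 5.45% ± 0.26 in Id1KO and 4.19% ± 0.31 in dKO (SD, n = 3). Pdk1, the kinase that keeps pyruvate out of the mitochondrial cycle, fell by 0.12 in Id1KO against WT (SE 0.03, edgeR adjusted p 0.0101), lost without WT replicate 2 (0.0569) or Id1KO replicate 2 (0.0544). Summed markers of mature macrophages (4 of 4 found, none at 0) were also lowest in dKO, at 21.7 to 24.5 CPM against 37.3 to 40.9 in WT, 28.4 to 33.4 in Tet2KO and 34.9 to 37.3 in Id1KO. The low sum came with Vcam1, at -1.26 in dKO against WT (edgeR adjusted p 4.66e-11), which was the only 1 of the 4 that passed the test there, while the median of the 4 was 0.30. In dKO against Tet2KO 1 passed the test as higher and 2 as lower (26.4% of all genes passed). In dKO against Id1KO 1 passed as higher and 1 as lower (19.3% of all genes passed). The part of these cells in the values of Ldhb, Slc16a3 and Pfkfb4 was not tested.

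The promoter windows of the lactate dehydrogenases are printed because their genes moved in opposite directions in dKO against WT and against Tet2KO, with capitals as above. Ldha (chr7:46845554-46845803, plus strand) holds 3 hypoxia cores and no GATA run, and Ldhb (chr6:142507958-142508207, minus strand) holds 1 hypoxia core and no GATA run. The Ldha start used lies 4329 bp from the annotated 5′ end, and the other RefSeq start of Ldha has 1 core, as many as Ldhb.
Ldha: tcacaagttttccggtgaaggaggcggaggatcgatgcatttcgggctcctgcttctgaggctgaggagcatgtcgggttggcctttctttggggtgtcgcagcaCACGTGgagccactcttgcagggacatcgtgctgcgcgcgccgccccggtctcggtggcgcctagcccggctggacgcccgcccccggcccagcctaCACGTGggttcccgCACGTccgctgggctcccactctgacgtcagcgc
Ldhb: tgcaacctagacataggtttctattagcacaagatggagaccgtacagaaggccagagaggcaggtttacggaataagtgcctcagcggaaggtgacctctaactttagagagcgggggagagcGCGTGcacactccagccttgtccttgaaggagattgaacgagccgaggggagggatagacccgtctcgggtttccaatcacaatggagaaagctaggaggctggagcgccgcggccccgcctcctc

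The 3 members of oxygen sensing did not pass the test in any comparison. Hif1a, the regulated HIF subunit, ran from -0.10 to 0.01 on the log2 scale (SE up to 0.045), and the hydroxylases Egln1 and Egln3 from -0.15 to 0.08 and from -0.18 to 0.03. HIF is regulated mainly at the level of protein, which was not measured. The other hypoxia targets split into movers and members below the threshold. None of the 6 tested passed the test as higher. As lower, 2 passed in Tet2KO against WT, 3 in dKO against WT and 3 in dKO against Id1KO. These are 33.3%, 50% and 50%, where 32.8%, 19.2% and 19.3% of all genes changed and 16.2%, 8.97% and 8.7% fell.

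Vegfa (chr17:46016993-46032369, ENSMUSG00000023951.17), the growth factor of blood vessels, had the largest called log2 fold change of the members after the low-count Aldoa gene. It stood at 29.9, 27.0 and 28.8 CPM in WT, with 20.5, 21.5 and 19.9 in Tet2KO, 31.4, 30.9 and 31.7 in Id1KO and 18.9, 18.4 and 19.2 in dKO. The 6 libraries of the Tet2-null labels were all below the 6 others, dKO below Tet2KO, and Id1KO above WT. It fell by 0.47 in Tet2KO against WT (SE 0.054, edgeR adjusted p 1.3e-06), by 0.60 in dKO against WT (SE 0.055, edgeR adjusted p 1.37e-07) and by 0.74 in dKO against Id1KO (SE 0.055, edgeR adjusted p 6.83e-09). The value was 0.13 in Id1KO against WT (edgeR adjusted p 0.0842) and -0.13 in dKO against Tet2KO (0.126), where the libraries did not overlap but the threshold was not passed. The 3 called values held in each of the 12 fits that left out 1 library and against a fold of 1.2.

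Mxi1 (chr19:53310518-53375810, ENSMUSG00000025025.14), a repressor that competes with Myc for its partner Max and a known HIF target, followed the same order. It stood at 37.4, 32.2 and 34.4 CPM in WT, with 29.0, 29.0 and 30.2 in Tet2KO, 34.2, 35.4 and 37.8 in Id1KO and 28.1, 27.3 and 24.7 in dKO. The Tet2-null labels lay below the others without overlap, and WT and Id1KO overlapped. The log2 fold change was -0.24 (SE 0.061, edgeR adjusted p 0.00539) in Tet2KO against WT, -0.38 (0.000194) in dKO against WT and -0.42 (5.16e-05) in dKO against Id1KO. Bnip3l, a receptor for the removal of mitochondria that maturing red cells need, gave -0.11 in dKO against WT (SE 0.033, edgeR adjusted p 0.0272) and -0.11 against Id1KO (0.0264). The first was lost without WT replicate 2 (edgeR adjusted p 0.16), dKO replicate 1 (0.0626), dKO replicate 2 (0.0728) or dKO replicate 3 (0.0659). The other was lost without Id1KO replicate 1 (edgeR adjusted p 0.0774), Id1KO replicate 3 (0.0834), dKO replicate 1 (0.0572), dKO replicate 2 (0.0565) or dKO replicate 3 (0.0574), and DESeq2 called neither. Bnip3, P4ha1 and Ankrd37 did not pass the test, with Ankrd37 at 6 to 15 counts per library.

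Beside Vegfa and Mxi1, the summed markers of mast cells, basophils and eosinophils (7 of 7 found, none at 0) ran from 451 to 460 CPM in WT, with 406 to 410 in Tet2KO, 555 to 560 in Id1KO and 362 to 369 in dKO. Of the 7, 4 passed the test as lower and 2 as higher in Tet2KO against WT, where 32.8% of all genes passed. In dKO against Id1KO, 5 passed as lower and 1 as higher, where 19.3% of all genes passed. The order of labels was that of Vegfa, and the part of these cells in the values of Vegfa and Mxi1 was not tested.

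**Figure D5:**
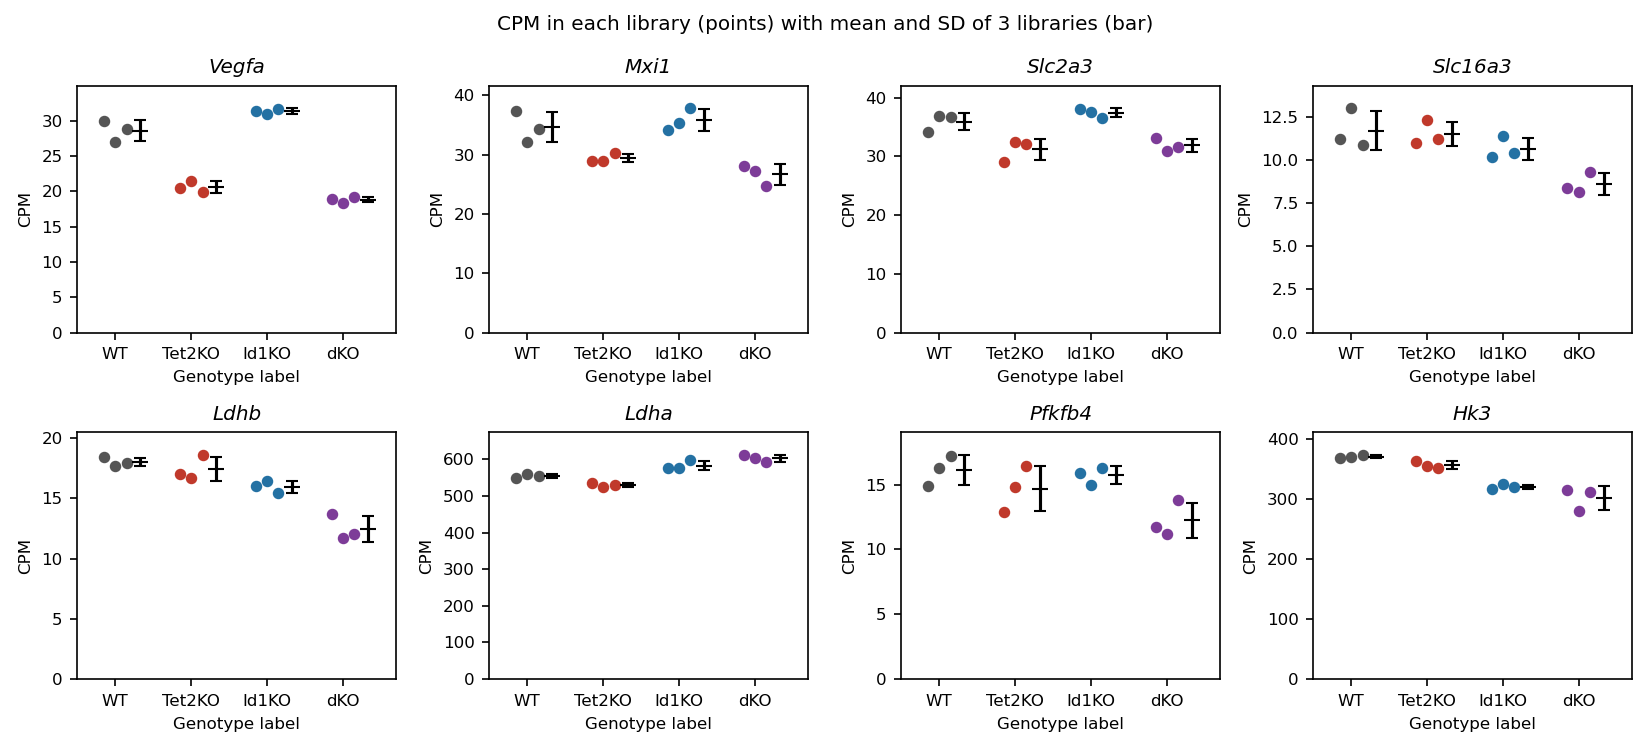
CPM of 8 members in each library (vertical axes from 0) by genotype label (horizontal axes), with points for libraries and bars for the mean and SD of 3 libraries. Vegfa, Mxi1 and Slc2a3 are lower in both Tet2-null labels, Slc16a3 and Ldhb are lowest in dKO, and Ldha is 592 to 611 CPM in dKO against 550 to 560 in WT.

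The windows of Vegfa and Mxi1, the hypoxia targets that fell together, hold no hypoxia core at the start nearest the annotated 5′ end. Vegfa (chr17:46032378-46032627, minus strand) holds 1 GATA run in capitals, and Mxi1 (chr19:53310256-53310505, plus strand) holds neither pattern and is printed in lower case throughout. The other start of Vegfa in the RefSeq table has 2 cores and the 2 other starts of Mxi1 have 1 each, and absence from this window says nothing about sites outside it.
Vegfa: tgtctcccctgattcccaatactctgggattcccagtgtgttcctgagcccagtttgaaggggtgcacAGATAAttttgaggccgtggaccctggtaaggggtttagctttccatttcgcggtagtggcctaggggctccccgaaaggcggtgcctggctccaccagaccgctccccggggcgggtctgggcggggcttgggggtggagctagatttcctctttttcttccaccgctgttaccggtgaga
Mxi1: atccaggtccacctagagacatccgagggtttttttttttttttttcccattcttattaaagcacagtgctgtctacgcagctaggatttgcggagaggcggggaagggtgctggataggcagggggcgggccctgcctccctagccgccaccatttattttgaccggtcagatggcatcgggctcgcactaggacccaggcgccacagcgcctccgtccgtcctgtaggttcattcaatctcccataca

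The effect of the Id1 label was then compared with and without the Tet2 label, as the interaction (dKO minus Tet2KO) minus (Id1KO minus WT). It passed an edgeR adjusted p of 0.05 for 8 of 34 members, 4 positive and 4 negative, against 14.5% of all genes, 7.46% positive and 7.03% negative. The members' median was -0.03 and that of all tested genes 0.01. A size of at least 0.3 was reached by 2 of these, Pfkm and Ldhb, against 6.76% of all genes. Pfkm (0.49, SE 0.064, edgeR adjusted p 2.72e-05), Hk1 (0.22, SE 0.045, 0.00279) and Slc16a1 (0.21, SE 0.042, 0.00241) held without any 1 of the 12 libraries. For these 3 the Id1 label went with higher values among Tet2-null labels, and the values without the Tet2 label were -0.04, -0.07 and 0.00. Of the 19 tested erythroid markers, 17 also passed the test with a positive interaction (median of the 19 was 0.93), against 7.46% of all genes. The 5 other values, of Hk2, Vegfa, Pfkfb3, Ldhb and Ldha, were each lost in at least 2 of the 12 fits.

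Genes of the same pathways that are not members were read from a list of 92 further symbols, of which 76 were tested. In Tet2KO against WT 25 changed (9 higher, 16 lower; 32.9%), in Id1KO against WT 11 (14.5%), in dKO against WT 15 (19.7%), in dKO against Tet2KO 21 (10 higher, 11 lower; 27.6%), in dKO against Id1KO 19 (25%) and in the interaction 13 (17.1%). These shares lay close to those of all genes except in dKO against Id1KO, where 19.3% of all genes changed. The lowest value in Tet2KO against WT was that of Pklr, the pyruvate kinase of red cells and liver, at -0.80 (SE 0.05, edgeR adjusted p 2.35e-10), and it was higher by 0.92 in dKO than in Tet2KO (4.55e-11). Minpp1, a phosphatase that also acts on a red cell phosphoglycerate, gave -0.57 (edgeR adjusted p 1.45e-10) and 0.50 (2.21e-09). As with Pfkm, both were thus lower in Tet2KO than in WT and higher in dKO than in Tet2KO. Fits that leave out 1 library were not run for the genes of this list.

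Among hypoxia targets outside the members, Ndrg1, a stress-induced gene, was higher by 0.38 (SE 0.036, edgeR adjusted p 1.1e-07) and Cxcr4, the chemokine receptor that holds stem cells in the marrow, by 0.33 (5.58e-08) in Tet2KO than in WT, the opposite direction to Vegfa, Mxi1 and Slc2a3. In dKO against Tet2KO, Ndrg1 was lower by 0.39 on the log2 scale. The glycogen phosphorylases Pygb and Pygl were -0.56 (edgeR adjusted p 4.09e-08) and -0.34 (2.5e-07) there. Of the 25 tested further hypoxia targets, 6 passed the test as higher and 2 as lower in Tet2KO against WT. In dKO against Tet2KO, 1 passed as higher and 6 as lower. These are 32% and 28%, near the 32.8% and 26.4% of all genes. Of 10 tested further oxygen sensing genes, 3 passed as lower and none as higher in Tet2KO against WT (30%, against 32.8% of all genes). In dKO against WT, 2 passed as higher and none as lower (20%, against 19.2%). Hif3a, a HIF subunit that can act as an inhibitor, was higher in dKO than in WT by 0.64 (SE 0.16, edgeR adjusted p 0.00707), than in Tet2KO by 0.83 (0.00088) and than in Id1KO by 0.49 (0.0317).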

How the data were processed

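The authors deposited estimated counts for each gene, made with STAR and RSEM on mm10, per the submitters' processing notes. The table was not normalized, and 5.06% of values were not whole. Versions, annotation and strand setting are not given in the sources used here. Cells were prepared with a micro kit and a stranded total RNA kit, per the labels' protocols. The columns were matched to samples by title. All 55450 identifiers matched GENCODE M21 (GRCm38), which gave positions and exonic lengths, so that levels per kb use merged exons.

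Counts were rounded and filtered with filterByExpr (minimum count 10), scaled by TMM and fitted in edgeR (quasi-likelihood) over all 12 libraries, with 1 mean for each genotype. Two-sided F-tests had Benjamini-Hochberg adjustment across all 14346 tested genes. The members and lists were chosen with earlier results of these data known. Values in every library are given for members called with a log2 fold change of at least 0.3 and no overlap, and for the 4 most abundant per kb. The 3 highest and 3 lowest called genes of a comparison could be named from the pathway list. Values of Slc2a3 in every library were added after they were seen. Pairs of libraries within a genotype differed beyond sampling noise (1.52 to 5.35 per gene by chi-square), so none was treated as a second deposit of another library. Repeat preparations of 1 sample could differ as much. The common biological coefficient of variation was 0.031.

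Alternatives were DESeq2, scaling by RLE, by upper quartiles or after removal of 6121 genes of mitochondrial and small structural RNA, other filters, only the compared libraries, a replicate block, leaving out each library, summed libraries, members summed with copies (blast, 95% identity over at least 300 bp), a threshold of 0.01 and glmTreat against 1.2-fold. The steps were tested on simulated data with known changes and 1 coefficient of variation (0.031) for all genes. Of 2-fold changes, 86.5% were recovered in Tet2KO against WT and 87% in the interaction. Of 1.2-fold changes, 48.5% and 25.5% were recovered. Members that did not pass the test may therefore hold small changes. Motifs were searched in RefSeq promoters. The tools were blast 2.17.0, matplotlib 3.10.9 under Python 3.11.15, and DESeq2 1.42.0, limma 3.58.1 and edgeR 4.0.16 under R 4.3.3.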

Additional observations from a re-analysis of the deposited data

Results flagged for a closer look

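The difference between the effect of the Id1 label with and without the Tet2 label passed an edgeR adjusted p of 0.05 for 8 members, as log2 values of (dKO minus Tet2KO) minus (Id1KO minus WT). Pfkm had 0.49, with 0.45 between dKO and Tet2KO and -0.04 between Id1KO and WT. Hk1 had 0.22, with 0.14 and -0.07. Slc16a1 had 0.21, with 0.21 and 0.00. These 3 held in all 12 fits that left out 1 library. Ldha had 0.11, with 0.18 and 0.07, and it was lost in 9 of those fits, with an edgeR adjusted p of up to 0.12 without Id1KO replicate 1. Ldhb had -0.31, with -0.48 and -0.18, and it was lost in 9, with up to 0.118 without Tet2KO replicate 3. Vegfa had -0.26, with -0.13 and 0.13, and it was lost in 2, without WT replicate 2 (edgeR adjusted p 0.0653) and without Tet2KO replicate 2 (0.0728). Pfkfb3 had -0.21, with -0.21 and 0.01, lost in 4 with up to 0.0617 without WT replicate 2. Hk2 had -0.14, with -0.16 and -0.02, lost in 5 with up to 0.0702 without WT replicate 3. DESeq2 kept 4 of the 8.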

How the results depend on the processing

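No call over the members reversed under any alternative, and scaling moved no member's value by more than 0.007 on the log2 scale. Of 57 calls, 38 held in all 12 fits that left out 1 library and 19 were lost in at least 1. DESeq2 kept 46 of 56.

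Against a fold of 1.2, the calls numbered (in the order of Tet2KO, Id1KO and dKO against WT, then dKO against Tet2KO and against Id1KO, then the interaction) 2, 0, 2, 2, 2 and 1, since that test asks for a larger change. In that order, 5.36%, 0.976%, 3.32%, 2.33%, 3.35% and 1.65% of all genes passed. At a threshold of 0.01 the members' calls numbered 1 in Id1KO against WT, 6 in dKO against Id1KO and 3 in the interaction. There 7.56%, 11.1% and 6.78% of all genes passed. Without the filter the members' calls numbered 5 in Id1KO against WT and 4 in the interaction, and with DESeq2 4 in the interaction. There 9.48%, 8.86% and 9.41% of all genes passed. With libraries summed per genotype the members' calls numbered 1 for the Tet2 label (Tet2KO against WT and dKO against Id1KO) and 0 for the Id1 label (dKO against Tet2KO, and Id1KO against WT). Of all genes, 1.62% and 0.0488% passed. The design leaves 1 residual degree of freedom there, which is the interaction, so members with an interaction cannot be judged by it. Leaving out 1 library gave 9 to 12, 2 to 5, 9 to 11, 12 to 14, 7 to 12 and 4 to 8 calls. Over the same fits, 26.2% to 34.0%, 10.4% to 16.4%, 13.7% to 19.1%, 20.3% to 26.4%, 14.5% to 19.5% and 10.9% to 14.8% of all genes passed. The extremes that moved the count by over 1.5 times were 5 in Id1KO against WT without dKO replicate 1, 7 in dKO against Id1KO without Id1KO replicate 3, 4 in the interaction without WT replicate 2, WT replicate 3 or Tet2KO replicate 1, and 5 there without Tet2KO replicate 3, Id1KO replicate 1 or Id1KO replicate 2.

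With a replicate block the counts were 10, 3, 11, 13, 10 and 6, and 53 of 57 calls held. The 4 lost were Gpi1 in Tet2KO against WT (edgeR adjusted p 0.0502), Aldoa in dKO against Id1KO (0.0548) and the interactions of Ldhb (0.0579) and Ldha (0.0714). Correlations of deviations between same-numbered libraries ran from -0.097 to 0.113 over 18 pairs (median 0.0265). Between libraries of different numbers they ran from -0.104 to 0.174 over 36 pairs (median -0.014), and 7 of 12 libraries were closest to their own number. The correlations were weak in both kinds of pair and the labels name no shared source, so the numbers were not used as pairs. Any agreement is a hint from the data, not the design. Without the filter on low counts, 50 of 57 calls held. In Tet2KO against WT, Pgam1 (edgeR adjusted p 0.0607), Hk2 (0.0828) and Gpi1 (0.0995) were lost. The interactions of Hk2 (edgeR adjusted p 0.0774), Vegfa (0.0664), Ldhb (0.0791) and Ldha (0.0529) were lost too.

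Depth limits Eno2, P4ha2, Ankrd37, Aldoc and the gene at ENSMUSG00000114515.2, whose counts are low in every library.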
